A study of Mus musculus with 4 samples.

Results

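The CCN family, 6 secreted matricellular proteins encoded by Ccn1 to Ccn6, was followed across sorted aortic smooth muscle cells (SMCs) of the mouse. The 6 genes are 6 of the 32287 features counted in each of 4 single-cell libraries, and they were chosen by name with it known that Ccn5 separates the reporter colours of the ascending aorta, so their levels are a description and carry no test. CCN proteins are built from modules shared with IGF-binding proteins, von Willebrand factor and thrombospondin, and they act outside the cell by binding integrins, proteoglycans and growth factors. Ccn1 (also Cyr61) is an immediate-early gene, and Ccn1 and Ccn2 (also Ctgf) are classic targets of YAP/TAZ with TEAD and of serum response factor in stretched or stimulated cells. Ccn3 (also Nov) is known as an abundant CCN gene of arterial SMCs, Ccn4 and Ccn5 (also Wisp1 and Wisp2) were first described as Wnt-induced, and Ccn5 lacks the C-terminal module of the others and is linked to quiescent SMCs.

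All mice were 12 weeks old and carried the Cre driver Wnt1-Cre2 with the mT/mG reporter, in which cells that have expressed Cre, and their descendants, make membrane eGFP and all other cells make membrane tdTomato. Wnt1-Cre2 is active in the premigratory neural crest, so eGFP stands for neural crest descent only as far as this driver marks it. The libraries were Arch-GFP (aortic arch, 8031 kept cells), Root (aortic root, no colour in its label, 2960), Asc-GFP and Asc-RFP (GFP and RFP cells of the ascending aorta, 6408 and 4030). Cells were viable, single and positive for the SMC integrin ITGA8, and the number and sex of the animals behind each library are not given in the sources used here.

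With 1 library per group there is no replicate error, and every interval below is a 95% interval for counting error only. Cells were kept at 1000 or more detected genes and a mitochondrial share of up to 10% of UMIs, which left 21429 of 29930 barcodes, 39691658 to 100987052 UMIs per library and medians of 12628 to 13605 UMIs per cell, while the labels state 4710, 1841, 4050 and 2450 filtered cells for Arch-GFP, Root, Asc-GFP and Asc-RFP. Of the Root cells, 576 were called eGFP cells (at least 8 eGFP UMIs and at most 1 of tdTomato) and 1832 tdTomato cells (at least 2 tdTomato UMIs and fewer than 8 of eGFP). The libraries shared 4 to 18 kept barcodes per pair. The 12 SMC markers, Acta2, Myh11 and Itga8 among them, summed to 48777 to 56337 CPM (UMIs of a gene per 1e6 UMIs summed over the group) in the 5 groups, so the labelled cell type was borne out by its markers. Macrophage markers (8 genes) summed to 0.624 CPM in Arch-GFP, 19.2 in Root eGFP cells, 559 in Root tdTomato cells, 4.63 in Asc-GFP and 157 in Asc-RFP. Cells with Xist and no Y-linked UMI were called female cells, and cells with a Y-linked UMI and no Xist male cells. Female cells made up 29.1% of the sexed cells of Arch-GFP, 87.8% of Root, 70.1% of Asc-GFP and 54.4% of Asc-RFP. Cells with both kinds of UMI, left out of the split by sex, were 10.2%, 1.93%, 9.47% and 5.26% of kept cells in that order. In the same order, 23 immediate-early genes (CCN genes kept out) summed to 2375, 3276, 2499 and 2698 CPM.

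The start of Ccn1 is shown because Ccn1 varied widely among the cells of a library, together with immediate-early and heat-shock genes. It is the only abundant member with an entry in the promoter table used here (2 of 6 members matched, Ccn1 and Ccn6). The 250 bases before its RefSeq start are chr3:145649986-145650235 of GRCm38.p6, minus strand, read 5′ to 3′, and they lie just upstream of the GENCODE M21 gene. Capitals mark, in order, a TEAD motif, the CRE core and a TATA box.

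Ccn1 promoter: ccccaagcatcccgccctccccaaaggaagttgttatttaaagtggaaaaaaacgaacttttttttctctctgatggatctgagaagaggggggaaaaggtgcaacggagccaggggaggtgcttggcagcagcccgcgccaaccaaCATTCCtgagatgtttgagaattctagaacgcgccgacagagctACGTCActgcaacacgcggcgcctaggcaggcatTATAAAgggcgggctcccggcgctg

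The TEAD motif CATTCC lay at -103 from the RefSeq start, ACGTCA, the core of the cyclic AMP response element, at -59, and TATAAA at -25. Searched on both strands of the 250 bases before the start, they were present in 12.6%, 6.47% and 12.4% of 32851 RefSeq promoters. The AP-1 motif TGANTCA (6.75% of promoters), the serum response factor CArG box (1.47%) and the SMAD motif CAGAC (42.2%) did not match in this window. A match is a description of letters and not a binding site.

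Ccn2, Ccn1 and Ccn3 were abundant in every group, Ccn5 was intermediate, Ccn4 was rare and Ccn6 was not seen in the kept cells. Counts are of 3′ ends, 1 tag per molecule, so levels are not divided by transcript length. The family as a whole took 3095 CPM in Arch-GFP, 4180 in Root eGFP cells, 3941 in Root tdTomato cells, 3346 in Asc-GFP and 3245 in Asc-RFP. Ccn2 was the most abundant member in every group, with 45.6% to 62.4% of the family's UMIs.

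Ccn2 (ENSMUSG00000019997, chromosome 10, 24595442 to 24598683, plus strand, mm10), the connective tissue growth factor, stood at 1930 CPM (1921 to 1938) in Arch-GFP, 2004 (1972 to 2036) in Root eGFP cells, 1798 (1782 to 1815) in Root tdTomato cells, 1878 (1868 to 1887) in Asc-GFP and 1770 (1759 to 1782) in Asc-RFP. It was the most level member, and the order of neighbouring groups rests on differences of a few percent.

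Ccn1 (ENSMUSG00000028195, chromosome 3, 145646976 to 145649981, minus strand) was lowest in the arch, at 419 CPM (415 to 423) in Arch-GFP, 940 (918 to 962) in Root eGFP cells, 815 (804 to 826) in Root tdTomato cells, 599.8 (595 to 605) in Asc-GFP and 631 (625 to 638) in Asc-RFP. Both Root groups stood above both ascending groups, and no 2 intervals overlapped.

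Ccn3 (ENSMUSG00000037362, chromosome 15, 54745702 to 54754039, plus strand) followed the segment, with 673 CPM (668 to 678) in Arch-GFP, 1171 (1147 to 1196) in Root eGFP cells, 1300 (1286 to 1314) in Root tdTomato cells, 778 (772 to 784) in Asc-GFP and 820 (812 to 827) in Asc-RFP. Root was high in both colours, the ascending aorta lower and the arch lowest.

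Ccn5 (ENSMUSG00000027656, chromosome 2, 163820861 to 163833146, plus strand) followed the colour, with 72.3 CPM (70.6 to 73.9) in Arch-GFP, 57.2 (52.0 to 62.8) in Root eGFP cells, 17.5 (15.9 to 19.2) in Root tdTomato cells, 89.5 (87.5 to 91.6) in Asc-GFP and 20.9 (19.7 to 22.1) in Asc-RFP. The 3 eGFP groups were all above the tdTomato groups, without overlap of the intervals.

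Ccn4 (ENSMUSG00000005124, chromosome 15, 66891320 to 66923201, plus strand) was detectable mainly in the root. Its level was 0.951 CPM (0.770 to 1.16) in Arch-GFP, 7.30 (5.52 to 9.48) in Root eGFP cells, 9.56 (8.41 to 10.8) in Root tdTomato cells, 0.880 (0.691 to 1.10) in Asc-GFP and 2.63 (2.22 to 3.10) in Asc-RFP. Arch-GFP and Asc-GFP could not be separated, nor could the Root colours. Ccn6 (ENSMUSG00000062074, chromosome 10, 39150970 to 39163794, minus strand) had 0 UMIs in the 21429 kept cells, which allows up to 0.0108 CPM, and 2 UMIs in all 29930 barcodes.

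**Figure D1:**
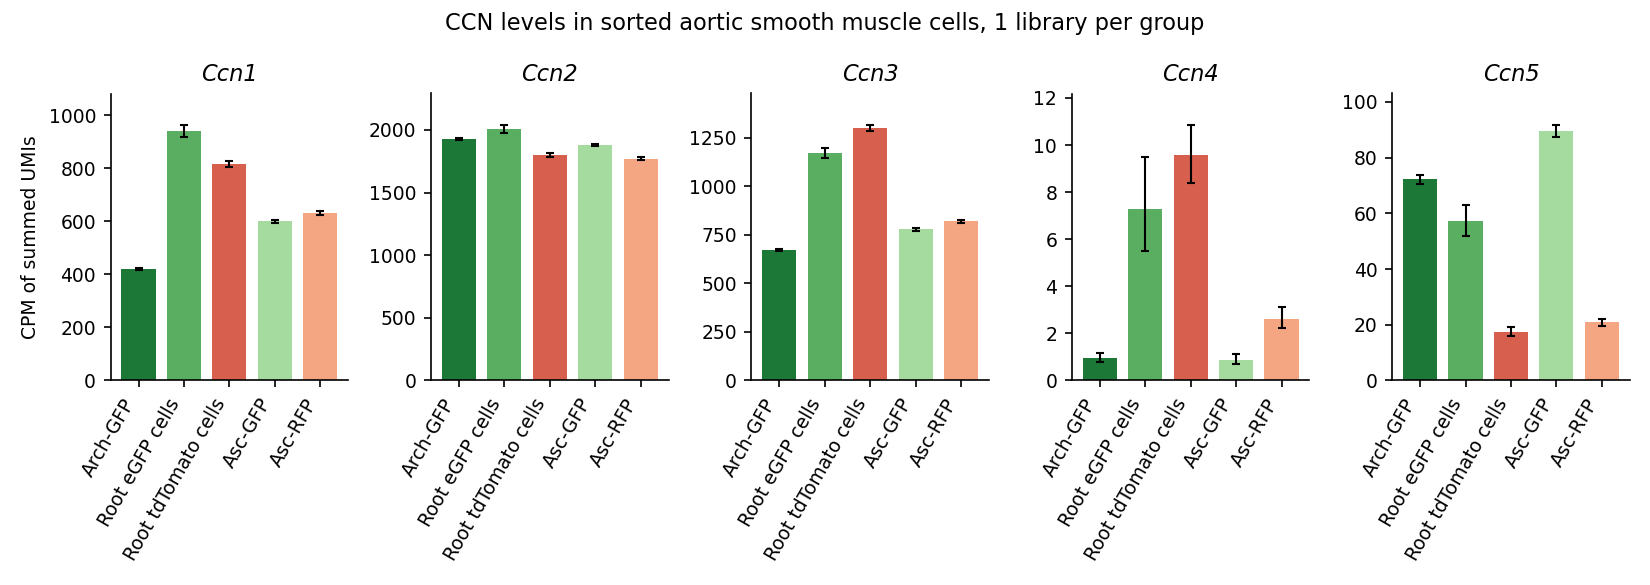
CPM of summed UMIs (linear vertical axes from 0, a scale for each gene) in the 5 groups, with bars for the level and whiskers for the 95% Poisson interval of the counts. Ccn3 and Ccn4 are high in both Root colours, Ccn5 is at 57.2 to 89.5 CPM in the eGFP groups and at 17.5 and 20.9 CPM in the tdTomato groups, and Ccn2 is nearly level.

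Between the colours of the ascending aorta, which set neural crest cells as marked by the driver against the other SMCs of the same segment, Ccn5 was the member that differed. It was 4.29-fold higher in Asc-GFP than in Asc-RFP (log2 ratio 2.10, 2.01 to 2.19) and ranked 14th by size among the 5725 genes that reached 20 CPM on either side. Of the 4 members at that level, 1 was at least 2-fold apart, against 0.681% of all genes (0.21% higher in Asc-GFP). Ccn1 (-0.074), Ccn2 (0.085) and Ccn3 (-0.075) were near 0 on the log2 scale. Ccn4, under 20 CPM, stood at a log2 ratio of -1.58 (-2.01 to -1.17). Summed macrophage markers (4.63 against 157 CPM) and fibroblast markers (132 against 279 CPM) were lower in Asc-GFP than in Asc-RFP, with no marker of either list at 0. The Ccn5 ratio was 2.09 without the macrophage-like, endothelial-like and low-UMI clusters, 2.10 in female cells and 2.09 in male cells.

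The colours of the root repeated the Ccn5 pattern inside 1 library, where both colours share digestion, sorting and sequencing. Ccn5 was 3.27-fold higher in Root eGFP than in Root tdTomato cells (log2 ratio 1.71, 1.52 to 1.90), ranked 37th of 5794 genes. It was 1 of 4 members past 2-fold, against 1.0% of all genes (0.0863% higher in eGFP cells). Ccn1 (0.21), Ccn2 (0.16) and Ccn3 (-0.15) were close in the 2 colours, and the interval of Ccn4 (-0.39, -0.83 to 0.03) held 0. Macrophage (19.2 against 559 CPM), endothelial (14.3 against 82.6 CPM) and fibroblast markers (223 against 489 CPM) were lower in the eGFP cells, and without the clusters of other cells and low UMIs the Ccn5 ratio was 1.67. A single eGFP cell carried 31 Ccn5 UMIs, against 14 in the next, and without it the eGFP level was 53.4 CPM.

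More cells had a Ccn5 UMI in the eGFP groups. With each cell thinned to 4100 UMIs, the share was 21.6% in Arch-GFP, 16.5% in Root eGFP cells, 5.69% in Root tdTomato cells, 26.2% in Asc-GFP and 6.35% in Asc-RFP, and unthinned it was 40.7%, 31.8%, 12.8%, 48.8% and 15.2% in that order. In Root macrophage-like cells, a type that should lack it, the thinned share was 7.25% of 69 cells (2.39% to 16.1%). Their median was 8285 UMIs before thinning over the 99 such cells, against 13747 in Root tdTomato cells. That interval holds the share of Root tdTomato cells, which could thus not be told apart from that of macrophage-like cells. The macrophage-like cluster held SMC markers at 20287 CPM over the 4 libraries, so it gives no clean background. In Asc-RFP the macrophage-like cells were shallower, with a median of 2636.5 UMIs against 13605 in the library, and 0 of 66 had a Ccn5 UMI, which allows up to 4.55%. Of the 23 deep enough to be thinned, 0 had one (95% interval up to 14.8%). The Ccn5 level was 17.0 CPM (9.91 to 27.2) in the Root macrophage-like cells, 2.34 CPM in the 54 Root endothelial-like cells and 0 CPM (up to 9.87) in the Asc-RFP macrophage-like cells.

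Clusters of cells were made without the CCN genes, but the reporter transgenes were not kept out. Among the leading genes were tdTomato in cluster 0 and eGFP in cluster 5, so the clusters may depend in part on colour. Ccn5 also varied among these clusters. The level was 97.7 CPM in Arch-GFP, 112 in Root and 111 in Asc-GFP, against 58.9 in Asc-RFP, in cluster 1, led, after Ccn5 itself, by the matrix gene Tnxb and the retinol carrier Rbp4. It was 43.5, 32.3 and 33.1 CPM, against 14.2 in Asc-RFP, in cluster 2, led by Acan (aggrecan) and Timp1. The Y-linked gene Ddx3y was also among the leading genes of cluster 2. The part of sex or animal in the differences between clusters was not tested. Within each cluster with at least 30 cells of both colours, Ccn5 was higher in Asc-GFP than in Asc-RFP. The log2 ratios were 1.66 in cluster 0 (52.0 against 16.4 CPM), 0.91 in cluster 1, 1.22 in cluster 2, 1.73 in cluster 3 and 1.57 in cluster 5. In the root the ratios were 1.57 in cluster 0 (41.0 CPM in eGFP against 13.8 CPM in tdTomato cells) and 1.18 in cluster 3, while those of cluster 2 (0.61, -0.48 to 1.78) and cluster 4 (0.26, -0.20 to 0.71) had intervals that held 0. In cluster 4, led by Lum, Thbs1, Corin and Dcn, Ccn5 was at 353 CPM (302 to 410) in 38 Arch-GFP cells. It was at 216 CPM (180 to 258) in 47 Asc-RFP cells and at 57.1 CPM (50.4 to 64.4) in 344 Root cells. Of the 127 Ccn5 UMIs in those Asc-RFP cells, 67 were in 1 cell, against 20 in the next highest cell of the library. Without that cell Asc-RFP as a whole was at 19.7 CPM.

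**Figure D2:**
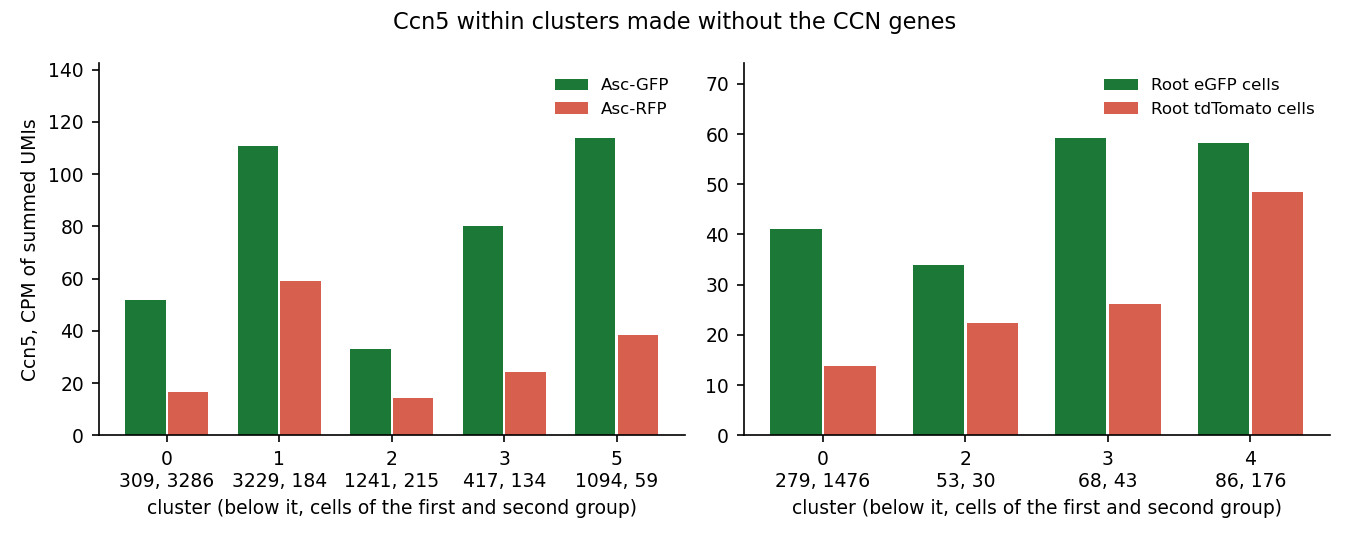
Ccn5 in CPM of summed UMIs (vertical axes from 0) within each cluster that held at least 30 cells of both colours, in the ascending aorta (left) and the root (right), with cell numbers below each cluster and no intervals drawn. The eGFP bar is the taller in every cluster, with the smallest gap in cluster 4 of the root, 58.1 against 48.5 CPM.

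Between segments of 1 colour, the arch was set against the ascending aorta. No member reached 2-fold between Arch-GFP and Asc-GFP (0 of 4, against 0.449% of 5792 genes). Ccn1 was the farthest, at a log2 ratio of -0.52 (-0.54 to -0.50), ranked 96th by size, and Ccn2 (0.040), Ccn3 (-0.21) and Ccn5 (-0.31) were nearer to 0. The Ccn1 difference moved with the sex of the cells and the immediate-early level: it was -0.25 in female cells, 0.073 in male cells and -0.18 in the tertile of cells with the lowest immediate-early share. Ccn3 was lower in Arch-GFP within clusters 1, 2, 3 and 5 (log2 ratios -0.21, -0.18, -0.21 and -0.15) and higher in cluster 9 (1.05), which held 1160 Arch-GFP and 30 Asc-GFP cells.

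Between root and ascending aorta, Ccn3 and Ccn4 were higher in the root in both colours. Ccn3 had a log2 ratio of 0.59 for Root eGFP cells over Asc-GFP and 0.67 for Root tdTomato cells over Asc-RFP. Ccn4 had 3.05 (2.53 to 3.57) and 1.86 (1.56 to 2.17), from levels under 20 CPM. Markers of other cells differed between these groups as well: macrophage markers summed to 559 against 157 CPM (5 of 5 measured at least 2-fold higher), fibroblast markers to 489 against 279 CPM (3 of 4) and endothelial markers to 82.6 against 30.2 CPM for Root tdTomato cells against Asc-RFP, and to 19.2 against 4.63, 223 against 132 and 14.3 against 28.5 CPM for Root eGFP cells against Asc-GFP. Without the clusters of other cells and low UMIs, the ratios were 0.59 and 0.70 for Ccn3 and 3.03 and 1.88 for Ccn4. Ccn1 was higher in the root too (0.65 and 0.37), Ccn2 was level (0.094 and 0.023) and Ccn5 was lower (-0.65 and -0.26). The Ccn1 ratios were smaller within a sex. For the eGFP pair they were 0.46 in female and 0.40 in male cells, and for the tdTomato pair 0.11 and 0.13. None of the 4 members at 20 CPM was 2-fold apart (0 of 4 in each, against 1.15% of 5818 genes for the eGFP pair and 1.75% of 5816 for the tdTomato pair). In the tertile with the lowest immediate-early share, the Ccn1 ratios were -0.17 and -0.075, on the other side of 0. The root's level of Ccn3 was seen within clusters: 1377 against 812 CPM in cluster 0 (Root tdTomato against Asc-RFP, log2 ratio 0.76), 0.36 in cluster 2 and 0.62 in cluster 3, but 1057 against 1169 CPM in cluster 4 (-0.15). For Root eGFP over Asc-GFP it was 0.51, 0.74, 0.47 and 0.63 in clusters 0 to 3. In male cells alone, of which Root eGFP had 64, that pair turned to -0.18.

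Between arch and root eGFP cells, Ccn1 was the called member, lower in Arch-GFP with a log2 ratio of -1.16 (-1.20 to -1.13), 1 of 4 members against 2.58% of 5926 genes (1.08% lower). Ccn3 followed at -0.80, Ccn2 at -0.054 and Ccn5 at 0.34, and Ccn4 at -2.94 from levels under 20 CPM. Of 18 measured immediate-early genes, 6 were at least 2-fold lower in Arch-GFP and none higher, with a median log2 ratio of -0.38 against 0.044 over all genes. The Ccn1 ratio was -0.71 in female cells, -0.33 in male cells and -0.0079 in the lowest immediate-early tertile. Ccn3 was at -1.15 in female and -0.15 in male cells, and Ccn2 at -0.014 and 0.53, with 64 male Root eGFP cells. These comparisons share libraries, so their ratios are not separate observations.

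**Figure D3:**
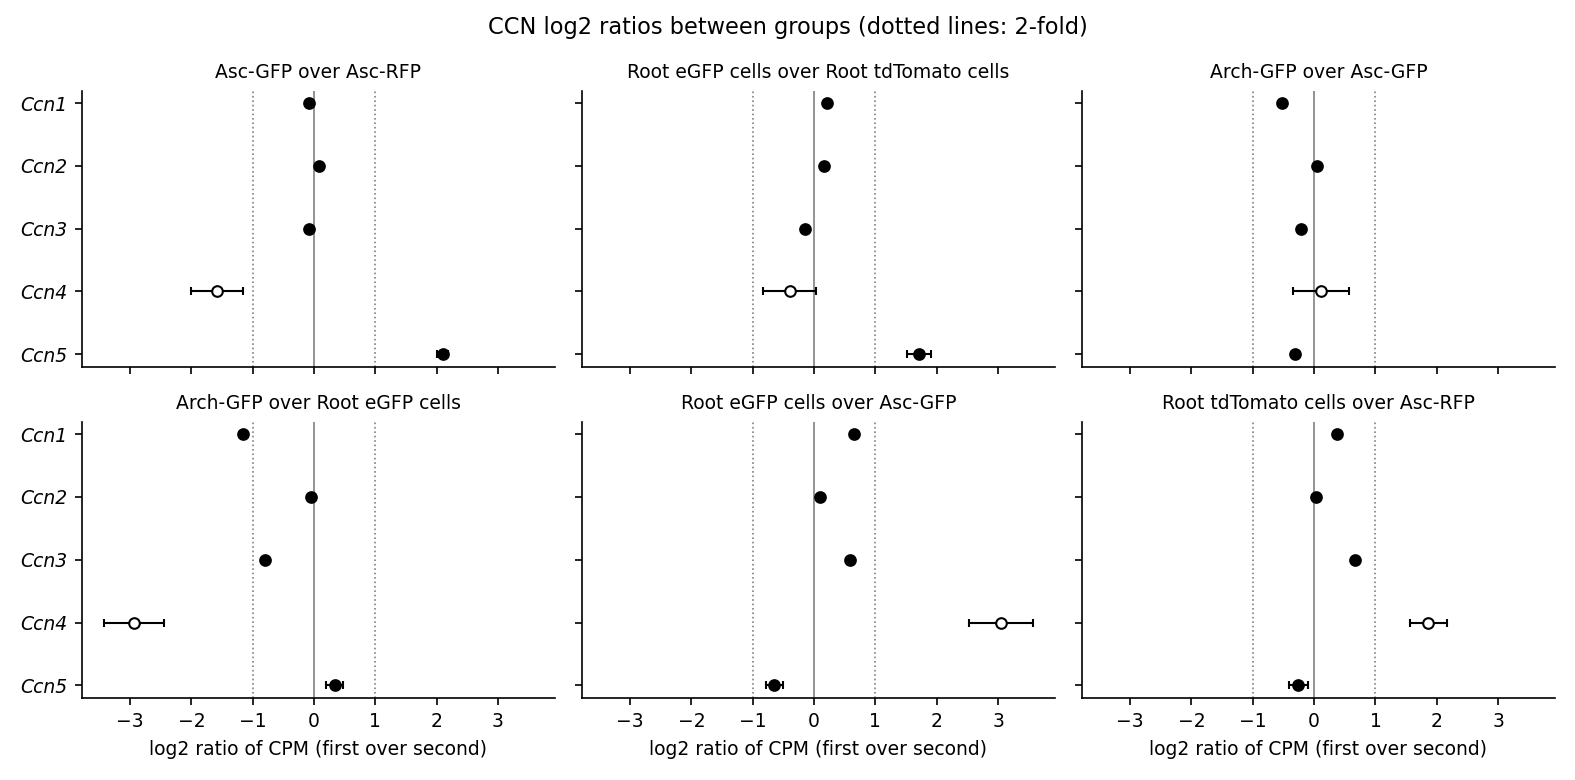
Log2 ratios of CPM for 5 CCN genes in 6 comparisons, first-named group over second, with 95% conditional binomial intervals of the counts. Open circles are genes under 20 CPM in both groups and dotted lines mark 2-fold. Ccn5 is past 2-fold between the colours of both segments, and Ccn1 between Arch-GFP and Root eGFP cells.

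Ccn4 was highest in cluster 4, whose leading genes were Lum, Thbs1, Corin and Dcn. Fibroblast-type proteoglycan genes were thus among them, and SMC markers stood at 51329 CPM. Ccn4 was at 12.4 CPM (4.54 to 27.0, 6 UMIs) in Arch-GFP, 22.7 in Root and 34.1 (20.8 to 52.7) in Asc-RFP. In cluster 0 it was at 7.64 CPM in Root and 2.30 in Asc-RFP. Ccn4 was not measured by the Lum or Dcn level of single cells. Cluster 4 held 344 Root cells, 47 Asc-RFP, 38 Arch-GFP and 10 Asc-GFP cells. Outside it the root was higher in part of the clusters. For Root tdTomato over Asc-RFP cells these were cluster 0, at 8.28 against 2.30 CPM (1.85, 1.49 to 2.22), and cluster 3 (2.72, 0.50 to 5.35). In cluster 4 the ratio was -0.52 (-1.27 to 0.30), and in cluster 2 its interval held 0 as well (0.25, -2.96 to 2.45). For Root eGFP cells over Asc-GFP, the intervals of cluster 0 (1.34, -0.13 to 3.01) and cluster 1 (0.60, -4.76 to 3.19) held 0, and those of cluster 2 (2.68, 1.10 to 4.01) and cluster 3 (4.60, 1.27 to 10.2) did not. A Ccn4 UMI was found in 3.29% of Root cells after thinning, against 4.35% of 69 Root macrophage-like cells (0.906% to 12.2%). That interval holds the share of Root cells, so these shares could not be told apart. The macrophage-like cells also give no clean background, as they held SMC markers. The unthinned shares were 9.86% and 6.06%, at medians of 13226.5 and 8285 UMIs. The Ccn4 level of all Root cells, 8.94 CPM, lay within the interval of Root macrophage-like cells (2.20 to 13.1 CPM). The interval of Root cluster 4 (18.6 to 27.6 CPM) lay above it. No cell held more than 4 Ccn4 UMIs.

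Ccn1 and Ccn2 followed the immediate-early state of the cells. Cells of each library were split into tertiles by the share of UMIs in the 23 immediate-early genes, from which the CCN genes were kept out. Ccn1 was at 201, 315 and 767 CPM in the lowest, middle and highest tertile of Arch-GFP, 183, 521 and 1598 CPM in Root, 227, 398 and 1172 CPM in Asc-GFP and 198, 398 and 1293 CPM in Asc-RFP. The tertiles were cut within each library. The immediate-early level of the highest was 3887 CPM in Arch-GFP, 5814 in Root, 4355 in Asc-GFP and 4867 in Asc-RFP. Ccn1 was closer across the 4 libraries in the lowest tertiles than in the highest. Even in the lowest, the intervals of Root (175 to 190 CPM) and Asc-GFP (222 to 233 CPM) did not overlap. The fold between the highest and the lowest tertile was 3.82, 8.75, 5.16 and 6.53, which ranked Ccn1 10th of 5849 genes, 18th of 5883, 9th of 5743 and 7th of 5729 in the same order of libraries. The genes at least 2-fold higher in the highest tertile, the immediate-early genes themselves included, made up 0.445%, 1.78%, 0.575% and 0.785% of all genes.

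Ccn2 moved less, with 1468, 1813 and 2555 CPM over the tertiles of Arch-GFP (1.74-fold) and 913, 1585 and 2710 CPM over those of Root (2.97-fold). The fold was 1.84 in Asc-GFP and 1.98 in Asc-RFP. Ccn3 was flat, between 658 and 684 CPM in Arch-GFP and between 1231 and 1280 CPM in Root. Ccn5 was lower in the highest tertile of 3 libraries, at 81.1, 74.0 and 60.8 CPM over the tertiles of Arch-GFP, 98.5, 91.3 and 79.0 over those of Asc-GFP and 25.7, 20.2 and 16.9 over those of Asc-RFP, and level in Root (25.8, 28.0 and 26.1 CPM). In cluster 3, led by Fosb, Fos, Egr1 and Atf3, Ccn1 reached 2115 CPM and Ccn2 3654 CPM over 818 cells.

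**Figure D4:**
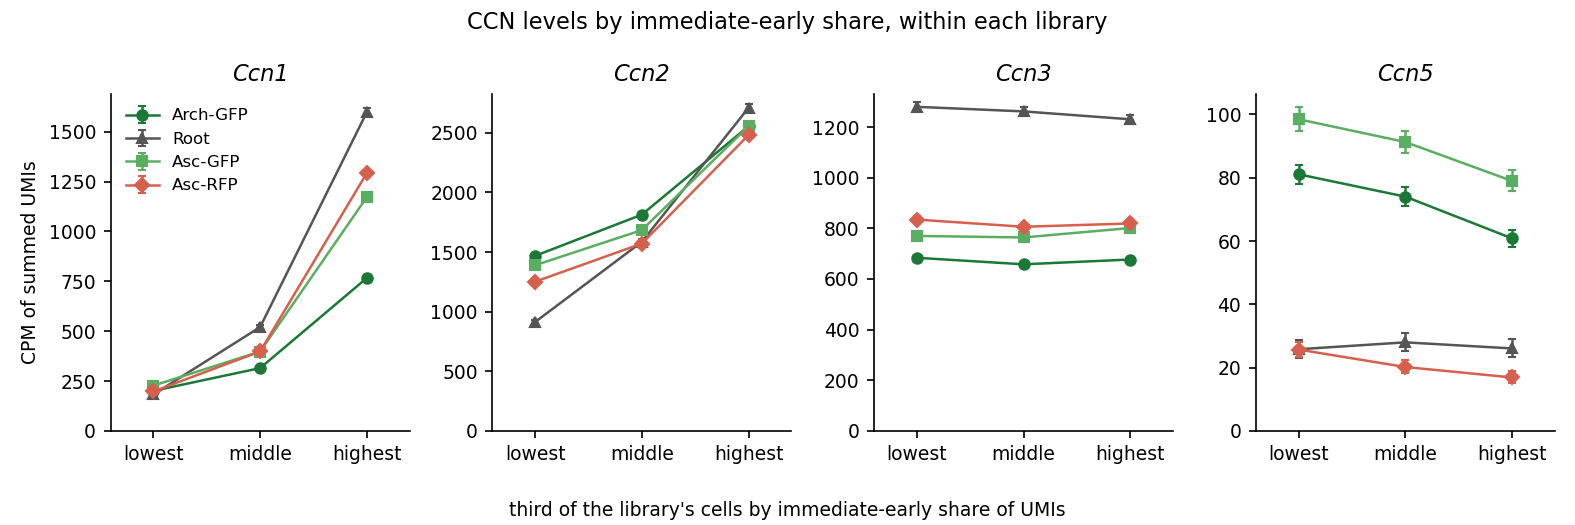
CPM of summed UMIs (vertical axes from 0) of 4 CCN genes in the tertiles of each library's cells by immediate-early share, low to high, with 95% Poisson intervals of the counts. Ccn1 is at 183 to 227 CPM in the lowest tertile of the 4 libraries and at 767 to 1598 CPM in the highest, while Ccn3 is flat.

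Of the other YAP/TAZ-TEAD targets, Ankrd1, a cardiac ankyrin repeat protein, moved with the tertiles by about as much as Ccn2. Its log2 ratio of the highest over the lowest tertile was 0.64 in Arch-GFP, 1.49 in Root, 0.91 in Asc-GFP and 1.28 in Asc-RFP, against 0.80, 1.57, 0.88 and 0.99 for Ccn2. Of the 20 listed, 14, 13, 13 and 12 were measured in Arch-GFP, Root, Asc-GFP and Asc-RFP, and the only one at least 2-fold higher was Ankrd1, in Root (24.6 CPM in the lowest and 69.3 CPM in the highest tertile) and Asc-RFP (23.5 and 56.9 CPM). The list's median log2 ratio was -0.027, -0.039, 0.055 and 0.14, against -0.022, -0.052, -0.032 and -0.025 over all genes. Between the groups, 0 of 13 YAP/TAZ-TEAD targets were 2-fold apart between Asc-GFP and Asc-RFP, against 0.681% of all genes. Between Root eGFP and Root tdTomato cells it was 0 of 13, against 1.0%. Between Arch-GFP and Asc-GFP it was 1 of 14, the tissue factor gene F3 (23.0 against 9.92 CPM), against 0.449%. Root eGFP cells and Asc-GFP had 1 of 13 apart, against 1.15%, and Root tdTomato cells and Asc-RFP 0 of 13, against 1.75%. For Arch-GFP over Root eGFP cells, 1 of 14 was higher and 1 lower, against 2.58% either way. Of the Hippo pathway components, 0 of 11 measured were 2-fold apart between the ascending colours and 0 of 13 between the root colours. In lists this short, a count of 0 at these shares says nothing about the list. Of the 12 Wnt/β-catenin targets, only Nkd1 and Bambi were measured and neither was 2-fold apart in these comparisons.

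Among 16 receptors and binding partners of CCN proteins, 12 were measured in the ascending aorta. Acan was higher in Asc-GFP than in Asc-RFP (44.0 against 14.4 CPM) and the proteoglycan Dcn, decorin, was lower (16.1 against 59.0 CPM). The integrin genes Itgav (64.4 against 66.0 CPM), Itgb1 (1548 against 1698 CPM) and Itgb5 (384 against 370 CPM) were close in the 2 colours, as was Lrp1 (270.3 against 247.5 CPM), a receptor of Ccn2.

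The spread from cell to cell was described by the variance over the mean after thinning, which depends on the level of a gene, and by the share of UMIs in the cells with most of them. The variance over mean of Ccn1 lay between 4.23 and 7.57 in the groups, that of Ccn2 between 4.59 and 8.04, that of Ccn3 between 1.95 and 2.50 and that of Ccn5 between 1.32 and 1.90. The 10% of cells with most UMIs held 43.6% to 48.1% of those of Ccn1, 27.4% to 34.7% of those of Ccn2, 23.9% to 28.0% of those of Ccn3 and 55.1% to 100% of those of Ccn5. This share depends on the level too. It must be 100% where fewer than 10% of cells have a UMI, as for Ccn5 in Root tdTomato cells (5.69%) and Asc-RFP (6.35%). It therefore does not rank Ccn5 against the other members. Correlations across cells, averaged over the 4 libraries and based on cells that share a library and a digestion, tied Ccn1 to Jun (r = 0.50), the heat-shock gene Hspa1a (0.49), Atf3 (0.47) and Hspa1b (0.46). Ccn2 was nearest to Ccn1 itself (0.43, from 0.34 in Arch-GFP to 0.56 in Root), then to Hspa1b, Hspa1a, Hspb1 and Hsp90aa1 (0.38 to 0.42). Ccn3 was nearest to the contractile genes Tagln, Acta2, Tpm2 and Flna and to the Wnt inhibitor Sost (0.25 to 0.29), and without the non-muscle and low-UMI clusters these were 0.15 for Tagln and 0.21 for Sost. The correlations of Ccn5 were weak, 0.15 to 0.18 with Mfap4, Eln, Fstl1, Ptprz1 and Sfrp2, and in counts this sparse they carry no finding. Other pairs of members were at 0.13 or less.

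Over the 5 groups, the genes whose log2 profile lay closest to a member, among 6057 genes and by root mean square distance, were Gucy1a1, Fgd4, C1qtnf7, Hist1h1e and Omd for Ccn1 and Mindy2, Hist1h4d, Gab1, Hist1h1e and Hipk2 for Ccn3. For Ccn2 they were Emsy, Nr3c1, Nfkb1, 2900097C17Rik and Ints8. Ccn2 itself varied little over the groups (standard deviation of 0.065 on the log2 scale), so other level genes lie near it. For Ccn5 they were Krt18, Bdh1, Hacd4, Kcnip4 and Abcc9, and its nearest, Krt18, lay at 0.35, against 0.061 for Gucy1a1 and Ccn1. The standard deviation over the groups was 0.96 for Ccn5 and 0.40 for Ccn1.

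Ccn1 was higher in female than in male cells of every library. It stood at 630 CPM in female and 340 CPM in male cells of Arch-GFP, 856 and 458 CPM in Root, 749 and 323 CPM in Asc-GFP and 813 and 443 CPM in Asc-RFP. The log2 ratios were 0.89 (0.86 to 0.92), 0.90 (0.84 to 0.97), 1.21 (1.17 to 1.25) and 0.88 (0.84 to 0.91), so that of the 4 libraries only Asc-GFP passed 2-fold, where it ranked 5th of 5759 genes. Genes at least 2-fold higher in female cells made up 0.237%, 0.655%, 0.174% and 0.333% of all genes in Arch-GFP, Root, Asc-GFP and Asc-RFP.

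Ccn2, Ccn3 and Ccn5 differed less than Ccn1 by the sex of the cells. Ccn2 was higher in female cells (log2 ratios 0.17 to 0.39) and Ccn5 likewise (0.22 to 0.48). Ccn3 was lower in female cells of Arch-GFP (555 against 718 CPM), Asc-GFP (714 against 904 CPM) and Asc-RFP (743 against 904.5 CPM), and close in Root as a whole (1271 against 1227 CPM). Within Root the colours went opposite ways, with 1229 against 797 CPM in eGFP cells (0.62, 0.51 to 0.74, 64 male cells) and 1294 against 1383 CPM in tdTomato cells (-0.096, -0.14 to -0.050). Ccn4 was lower in female cells of Root (7.77 against 16.2 CPM, -1.06, -1.44 to -0.67), Asc-GFP (-1.76) and Asc-RFP (-1.54), while in Arch-GFP the interval of -0.29 held 0.

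The summed immediate-early level was higher in female cells as well, at 2718 against 2240 CPM in female and male cells of Arch-GFP, 3329 against 3021 in Root, 2764 against 2016 in Asc-GFP and 3075 against 2292 in Asc-RFP, and cluster 3 held 5.37% of female against 0.891% of male cells of Arch-GFP and 10.3% against 0.509% of Asc-GFP. The single genes were mixed: of 17, 19, 16 and 18 measured in Arch-GFP, Root, Asc-GFP and Asc-RFP, 2, 1, 2 and 3 were at least 2-fold higher in female cells, Atf3 in all 4 libraries. In Root, Junb (28.0 against 74.5 CPM) and Klf2 (65.0 against 139 CPM) were at least 2-fold lower in female cells, and the list's median log2 ratio was -0.042, against -0.023 over all genes. In the lowest tertile alone, Ccn1 was at 249 against 177 CPM in Arch-GFP, 178 against 163 in Root, 274 against 168 in Asc-GFP and 222 against 174 in Asc-RFP. Sex and animal cannot be told apart here, because cells of 1 sex may come from 1 animal, and the part of the immediate-early level in the Ccn1 ratios was not tested.

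**Figure D5:**
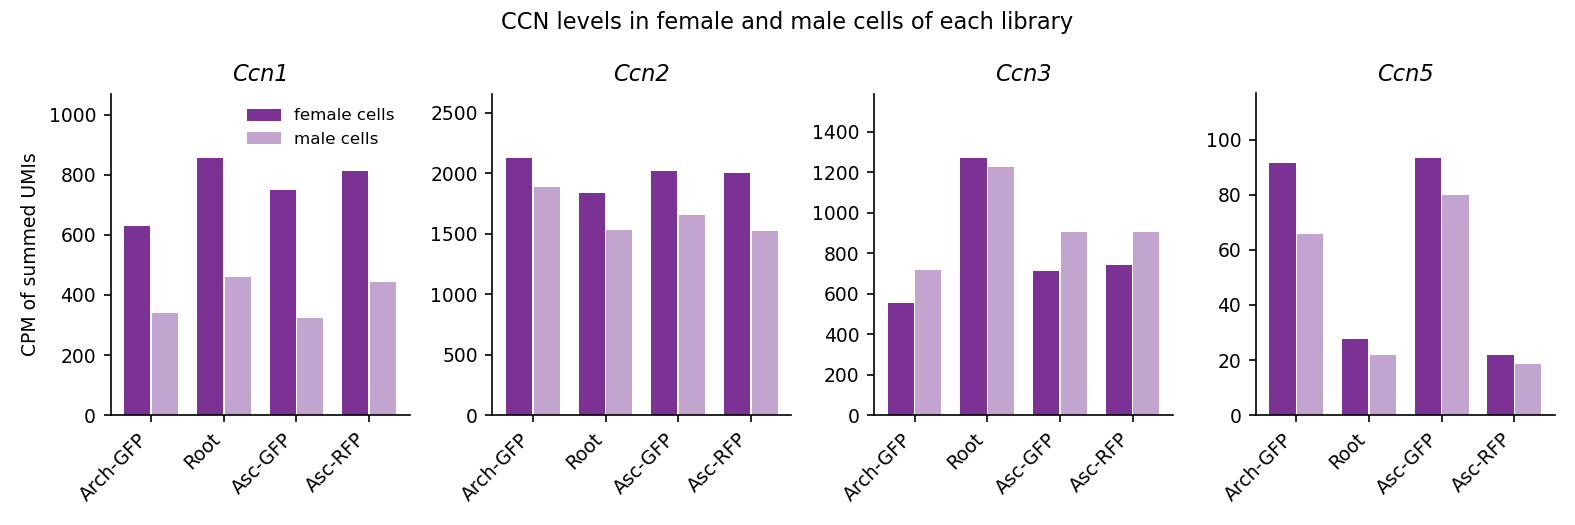
CPM of summed UMIs (vertical axes from 0) of 4 CCN genes in female and male cells of each library, with no intervals drawn. Ccn1 is higher in female cells of all 4 libraries, and Ccn3 is lower in female cells of 3 and close in Root.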

How the data were processed

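Transcripts of sorted aortic cells were counted in 4 droplet libraries. Per the labels' protocols, tissue was digested in the cold and libraries were made with 10x Genomics 3′ chemistry. The deposited values are whole UMI counts of each gene in each barcode, written by Cell Ranger 7.0.0 according to the file headers. The submitters' processing notes name the build mm10 and Seurat 4.3, of which no output was used. The strand setting of the counting is not stated in these sources.

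UMIs were summed over kept cells and divided by the total (CPM), with exact Poisson, conditional binomial and binomial intervals at 95%. A count of 0 was set against 3 counts over all kept cells. A call meant at least 20 CPM in either group and a 2-fold ratio. Thinning to 4100 UMIs per cell left out shallower cells. Clusters came from scanpy 1.11.5 (2000 variable genes without the CCN genes, 30 components, 15 neighbours, Leiden resolution 0.5, seed 1, no integration). No doublet caller was run, and free RNA was not removed. Clusters are called endothelial-like or macrophage-like from fixed marker lists, and the low-UMI cluster is unnamed. The ratio and interval code was tested on simulated data. Positions are from GENCODE M21, promoters from RefSeq.

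Members, lists and rules were chosen with earlier results of these data known. All members are named. The 5 nearest genes by correlation and by profile are named for each member with at least 20 CPM, and up to 4 genes of a list. Some genes that these rules name are left out of the text. The comparisons by sex, tertile and cluster and the ranks were chosen after the data were seen. Alternatives in cell filter, cell types kept, scaling, summing, sex, doublets, immediate-early tertile, minimum level and reporter call are given at the end.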

Additional observations from a re-analysis of the deposited data

Results flagged for a closer look

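In 7 cases, the ratio of a CCN gene between groups stood on one side of 0 in female cells and on the other in male cells with neither counting interval holding 0, and none of these differences between the sexes was tested. The Ccn1 log2 ratio of Arch-GFP over Asc-GFP was -0.25 in female and 0.073 in male cells. For Root eGFP over Root tdTomato cells, the ratio in female and male cells was 0.23 and -0.18 for Ccn1, 0.22 and -0.31 for Ccn2 and -1.21 and 1.15 for Ccn4. For Root eGFP cells over Asc-GFP it was 0.087 and -0.34 for Ccn2 and 0.78 and -0.18 for Ccn3, and for Root tdTomato cells over Asc-RFP it was -0.11 and 0.092 for Ccn2.

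Of these, 5 rest on the 64 male Root eGFP cells. Of those 64 cells, 39 (60.9%) lay in cluster 4, against 30 of 477 female Root eGFP cells (6.29%). Of the Root tdTomato cells, 39 of 225 male (17.3%) and 121 of 1505 female cells (8.04%) lay there. Of the 24 Ccn4 UMIs of the male Root eGFP cells, 20 were in cluster 4, and 4 of the 25 of the female ones. The part of cluster makeup, animal or sex in these ratios was not tested.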

How the results depend on the processing

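No paired analysis was possible because each group has 1 library. Of 320 alternative values of the member ratios, 195 kept their sign and moved by no more than their counting interval, 105 kept it and moved farther and 20 changed sign. Of the 20, 3 were of Ccn4, in ratios whose own interval held 0: -0.62 in male cells and -0.027 in the lowest immediate-early tertile for Arch-GFP over Asc-GFP and 1.15 in male cells for Root eGFP over Root tdTomato cells. Ccn5 ranged from 1.94 to 2.19 (log2) for Asc-GFP over Asc-RFP and from 1.16 to 2.47 for Root eGFP over Root tdTomato cells. For Asc-GFP over Asc-RFP, the sign changes were Ccn1 at 0.016 with at least 2000 genes and at most 5% mitochondrial UMIs and 0.20 in the lowest immediate-early tertile. In male cells, Ccn1 was 0.073 for Arch-GFP over Asc-GFP, Ccn1 -0.18 and Ccn2 -0.31 for Root eGFP over Root tdTomato cells, Ccn2 -0.34 and Ccn3 -0.18 for Root eGFP cells over Asc-GFP and Ccn2 0.53 for Arch-GFP over Root eGFP cells. In the lowest tertile, Ccn1 was -0.17 and Ccn2 -0.34 for Root eGFP cells over Asc-GFP, Ccn1 -0.075 and Ccn2 -0.50 for Root tdTomato cells over Asc-RFP and Ccn2 0.42 for Arch-GFP over Root eGFP cells. Ccn2 for Root tdTomato cells over Asc-RFP was also -0.048 with the stricter filter, -0.00016 as a mean over cells and -0.11 in female cells, and for Arch-GFP over Root eGFP cells 0.029 with the stricter filter. The cause was not tested. With a minimum of 5 CPM, the genes 2-fold apart numbered 124, 89, 218, 192, 297 and 382 (against 39, 26, 58, 67, 102 and 153) for Asc-GFP over Asc-RFP, Arch-GFP over Asc-GFP, Root eGFP over Root tdTomato cells, Root eGFP cells over Asc-GFP, Root tdTomato cells over Asc-RFP and Arch-GFP over Root eGFP cells, since more genes enter. Members 2-fold apart numbered 2 in male cells for Root eGFP over Root tdTomato cells (Ccn4 and Ccn5) and for Root eGFP cells over Asc-GFP (the same 2), and at 5 CPM 1 for Root eGFP cells over Asc-GFP and 1 for Root tdTomato cells over Asc-RFP (Ccn4). For Arch-GFP over Root eGFP cells they numbered 0 with the stricter filter, 0 in the lowest tertile and 2 at 5 CPM (Ccn1 and Ccn4), and the 1 member was Ccn3 in female and Ccn4 in male cells. In the settings by sex, tertile and stricter filter, the share of all genes past 2-fold was not computed, and at 5 CPM only their number is given. These member counts thus have no background to be read against and carry no finding. Depth limits Ccn4 and Ccn6, whose counts are few.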
